A study of Mus musculus with 12 samples.

Results

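Transcripts of 8 genes for scavenger receptors of modified lipoproteins and their partners (Cd36, Msr1, Cd68, Olr1, Stab1, Stab2, Scarf1 and Cd5l) were followed in mouse spleen and axillary lymph node. The members were chosen by gene symbol, and all 8 were found among the 23284 rows of both count tables. The DKO animals are double deficient mice that make neither mouse apoE nor mouse apoA-I, and they were set against DKO/hA-I animals, which carry the same double deficiency and in addition overexpress apoA-I of human origin. Every mouse was 30 weeks old and ate normal laboratory diet. Poly(A) RNA was sequenced from 3 libraries of each of 4 groups, which are spleen DKO, spleen DKO/hA-I, lymph node DKO and lymph node DKO/hA-I. What drives the human transgene, and in which cells, is not given in these sources. The study's title names skin xanthomas, inflammation and coronary atherosclerosis in the mice without apoA-I, and the comparison asks how these receptors stand in lymphoid tissue when human apoA-I is absent.

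Scavenger receptors bind oxidised or otherwise modified lipoproteins, dying cells and other polyanionic ligands, and take them up without the feedback control that limits the classical receptor for low density lipoprotein. In macrophages this uptake is the route to cholesterol-laden foam cells. Cd36 (class B) and Msr1 (class A, scavenger receptor A) carry most uptake of modified lipoprotein in macrophages, Cd68 (class D) is a mainly lysosomal glycoprotein of phagocytes, and Olr1 (class E) encodes the lectin-like oxidised lipoprotein receptor first known from endothelium. Stab1 and Stab2 (class H) encode the large clearance receptors stabilin-1 and stabilin-2 of sinusoidal endothelium and some macrophages, Scarf1 (class F) an endothelial receptor for acetylated lipoprotein, and Cd5l a secreted protein of tissue macrophages with scavenger receptor cysteine-rich domains. Cd36 is also a fatty acid transporter of adipocytes and is present on platelets.

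Libraries held 8966001 to 11237680 counts in spleen and 5911835 to 11950825 in lymph node, the lowest being lymph node DKO replicate 2. In that library a floor of 3 counts is 0.507 CPM (counts scaled to a common library size), and in the deepest library it is 0.251 CPM, covering counting error only. Markers followed the tissue labels, with all 8 red pulp macrophage markers and all 7 platelet markers called higher in spleen than in node of DKO mice, and 6 of 8 T cell markers called lower. Neither genotype has intact mouse Apoa1 or Apoe, and the human transgene was not analysed here, so the targeted genes give no check of the genotype labels. A pseudogene singled out for this reason, Rpl31-ps12, had 5 summed counts in spleen DKO against 2162 in spleen DKO/hA-I, but 2094 in lymph node DKO against 3 in lymph node DKO/hA-I. The authors' deposited log2 ratios also correlated with the edgeR fold changes in opposite directions, at -0.993 in node and 0.945 in spleen. The groups below are therefore those of the labels, and exchanged labels in 1 tissue would reverse its genotype directions. Each comparison of spleen with node would then set different genotypes against each other. The difference of genotype differences between tissues would change as well. In the animal codes, the second number was common to all DKO nodes and absent from DKO/hA-I nodes, so in lymph node genotype and whatever the number stands for cannot be told apart. No library was a copy of another, since counts within a group differed by 9.52 to 56.5 times the Poisson expectation.

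To compare levels between genes, CPM was divided by the length of all annotated exons (CPM per kb). Cd5l had the highest mean level of the members in each group. In DKO/hA-I nodes that rank rested on replicate 1, at 168 CPM per kb. In replicates 2 and 3 of that group Cd5l stood at 46.4 and 38.7, below Cd36 at 93.2 and 49.2 and Cd68 at 58.5 and 48.1 CPM per kb. In spleen DKO its level was 299 ± 41.2 CPM per kb and in spleen DKO/hA-I 249.6 ± 33.2 (SD, n = 3 each). Spleens of both genotypes followed the order Cd5l, Cd68, Cd36, Stab2, Stab1, Scarf1, Msr1 and Olr1. In spleen DKO, only Msr1 and Olr1 among neighbours in that order had overlapping libraries. In spleen DKO/hA-I the overlapping neighbours were Cd68 with Cd36 and Stab1 with Scarf1.

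Nodes had other orders of mean levels, Cd5l, Cd68, Cd36, Msr1, Stab1, Stab2, Scarf1 and Olr1 in DKO, and Cd5l, Cd36, Cd68, Stab2, Msr1, Stab1, Scarf1 and Olr1 in DKO/hA-I. Msr1 stood at 19.3 ± 8.71 CPM per kb in lymph node DKO and 9.08 ± 2.87 in lymph node DKO/hA-I. That placed the Msr1 level in the fourth rank in DKO nodes and the fifth in DKO/hA-I nodes, against the seventh in spleen. In nodes of both genotypes each neighbour among the first 3 members overlapped with the next, as did each among the 4 that followed. Members further apart could be separate. In DKO nodes every library of Cd5l lay above every library of Cd36, and those of Msr1 and Stab1 lay above those of Scarf1. In DKO/hA-I nodes Stab2 lay above Scarf1. Olr1 was lowest in nodes too, at 0.555 ± 0.469 CPM per kb in DKO and 0.129 ± 0.069 in DKO/hA-I. Exon lengths include all isoforms, so genes expressed as a short isoform are understated on this scale.

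**Figure D1:**
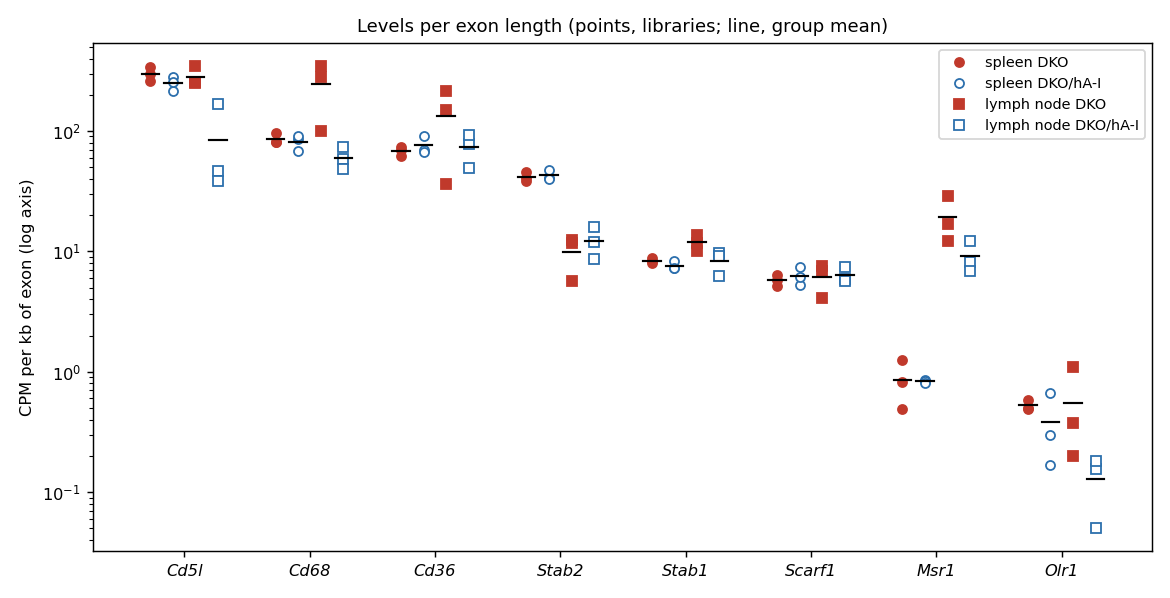
Level of each member per exon length, in CPM per kb on a log axis, with 1 point per library and a line at the mean of 3 libraries, in the 4 groups. Cd5l has the highest mean in each group, in lymph node DKO/hA-I through 1 library at 168 CPM per kb, and Msr1 stands at 19.3 CPM per kb in lymph node DKO and 9.08 in lymph node DKO/hA-I against 0.849 and 0.832 in the spleens of the same genotypes.

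On GRCm38 the genes lie on 7 chromosomes and share no cluster. Cd36 lies on chromosome 5 (17781690 to 17888801), Msr1 on chromosome 8 (39581685 to 39642673) and Olr1 on chromosome 6 (129485244 to 129507165). Both Cd68 (69664213 to 69666153) and Scarf1 (75513540 to 75526582) are on chromosome 11. Stab1 lies on chromosome 14 (31139013 to 31168641), Stab2 on chromosome 10 (86841198 to 87008025) and Cd5l on chromosome 3 (87357881 to 87371073). Stab1 overlaps Nt5dc2 on the other strand by 112 bases, and Stab2 spans antisense genes that are not rows of the tables. Whether counting used strand is not stated in these sources, so reads from these partners cannot be told apart from stabilin reads.

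RefSeq upstream windows (GRCm38.p6) were at hand for 6 members. They are shown for the 3 members with the highest ratios of DKO to DKO/hA-I nodes among those windows, and for the stabilin pair, whose genes stood apart between the tissues. Each line gives the 250 bases before the annotated start, 5′ to 3′ on the strand of the gene, and capitals mark matches to an AP-1 motif (TGANTCA) or a PU.1 core (GAGGAA), searched on both strands.
Cd68, chr11:69666171-69666420, minus strand: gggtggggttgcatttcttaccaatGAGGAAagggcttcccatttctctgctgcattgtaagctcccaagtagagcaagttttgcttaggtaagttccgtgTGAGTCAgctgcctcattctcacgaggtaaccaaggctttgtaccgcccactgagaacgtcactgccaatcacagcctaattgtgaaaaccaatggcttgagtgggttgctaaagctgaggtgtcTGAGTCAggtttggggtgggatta
Cd5l, chr3:87357631-87357880, plus strand: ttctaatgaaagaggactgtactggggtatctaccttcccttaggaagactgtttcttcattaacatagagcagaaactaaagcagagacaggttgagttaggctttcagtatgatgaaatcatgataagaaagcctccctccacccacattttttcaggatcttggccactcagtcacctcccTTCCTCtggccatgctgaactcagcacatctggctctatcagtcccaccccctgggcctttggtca
Olr1, chr6:129507166-129507415, minus strand: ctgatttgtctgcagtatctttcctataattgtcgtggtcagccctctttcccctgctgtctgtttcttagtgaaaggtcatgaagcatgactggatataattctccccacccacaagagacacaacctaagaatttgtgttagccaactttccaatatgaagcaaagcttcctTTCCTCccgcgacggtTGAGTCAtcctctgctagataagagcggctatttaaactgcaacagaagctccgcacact
Stab1, chr14:31168642-31168891, minus strand: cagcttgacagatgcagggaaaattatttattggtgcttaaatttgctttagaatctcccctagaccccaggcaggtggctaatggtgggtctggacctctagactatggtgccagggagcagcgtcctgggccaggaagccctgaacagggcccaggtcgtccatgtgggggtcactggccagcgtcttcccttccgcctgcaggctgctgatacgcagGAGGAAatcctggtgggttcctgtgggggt
Stab2, chr10:87007943-87008192, minus strand: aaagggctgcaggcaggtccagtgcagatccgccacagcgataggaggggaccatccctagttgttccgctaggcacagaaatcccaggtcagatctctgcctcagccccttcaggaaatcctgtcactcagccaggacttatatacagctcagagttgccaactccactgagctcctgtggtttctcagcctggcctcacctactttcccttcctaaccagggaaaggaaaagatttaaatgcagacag
AP-1 is the factor of Fos and Jun proteins, and PU.1 the lineage factor of macrophages and B cells. The AP-1 motif was found in the Cd68 and Olr1 windows, against 6.75% of 32817 RefSeq windows of this length. Cd68 held 2 of them, as 0.338% of windows did. The PU.1 core was found in 4 of the 6 member windows (Cd68, Cd5l, Olr1 and Stab1), against 23.3% of windows. These letters say nothing of whether a factor was bound in these tissues.

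In lymph node, Cd68 was the member that passed the test, and it was higher in DKO. Cd68 stood at 355, 127 and 437 CPM in DKO nodes 1, 2 and 3, against 92.8, 73.5 and 60.5 CPM in DKO/hA-I nodes 1, 2 and 3. Each DKO node lay above every DKO/hA-I node, with DKO replicate 2 close to the DKO/hA-I range. The group means were 307 ± 161 CPM and 75.6 ± 16.2 CPM, a 4.09-fold difference (log2 fold change 2.03 ± 0.42, edgeR adjusted p = 0.0341). More cells of a type and more RNA per cell cannot be told apart in bulk tissue. Of the 8 members 7 passed the filter on low counts in node, and 1 of these 7 was called, against 6.87% of 14012 genes tested. By direction, 1 of 7 was called higher, against 3.95% of genes, and 0 lower, against 2.92%. The call was lost when any library other than DKO replicate 2 was left out. The adjusted p was 0.0783 when DKO replicate 1 was left out and 0.108 for DKO replicate 3. For the DKO/hA-I replicates 1, 2 and 3 it was 0.089, 0.135 and 0.125, while the log2 fold change kept to between 1.67 and 2.40. Without DKO replicate 2 it was 2.40 (edgeR adjusted p = 0.000221). The call also ended with limma voom (adjusted p = 0.0543), without the filter on low counts (0.0553 by edgeR) and with the replicate number as a block (0.0663 by edgeR). Other settings called more members. DESeq2 called Msr1 as well (adjusted p = 0.0177), and the edgeR fit over all 12 libraries called Cd68 (0.00188), Cd5l (0.0161), Msr1 (0.0361) and Stab1 (0.0497).

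The 3 other uptake receptors had higher means in DKO nodes. Cd36 and Msr1 did not pass the test, and Olr1 was not tested there. Cd36 stood at 536, 130.5 and 764 CPM in DKO nodes, against 282, 335 and 177 CPM in DKO/hA-I nodes. DKO replicates 1 and 3 were above, and DKO replicate 2 below, every DKO/hA-I node. The log2 fold change was 0.86 ± 0.56 (edgeR adjusted p = 0.384). Without DKO replicate 2 it was 1.31 (edgeR adjusted p = 0.0265), and without DKO replicate 3 it was 0.33 (0.794). Leaving out any other node gave no call. Neutrophil markers summed to 1400 CPM in DKO replicate 2 and to 199 and 444 CPM in DKO replicates 1 and 3, and their part in the Cd36 value was not tested.

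Msr1 stood at 107, 77.0 and 184 CPM in DKO nodes, against 78.1, 51.6 and 43.2 CPM in DKO/hA-I nodes. Only DKO replicate 2 and DKO/hA-I replicate 1 overlapped. Its log2 fold change was 1.10 ± 0.34 (edgeR adjusted p = 0.0973), and between 0.67 and 1.38 with a library left out. Olr1 had 8, 8 and 44 counts in DKO nodes, against 6, 2 and 6 in DKO/hA-I nodes. It did not pass the filter in node, and most of its DKO counts came from replicate 3. In the fit over all 12 libraries, where it was tested, Olr1 did not pass (2.15 ± 0.70, edgeR adjusted p = 0.0559). The ratio of summed counts was 4.48 (95% exact interval 2.47 to 8.67, for counting error only).

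Cd5l had the second largest log2 fold change among the members tested in node. It stood at 515, 515 and 699 CPM in DKO nodes, against 342, 94.4 and 78.8 CPM in DKO/hA-I nodes. The groups did not overlap, as for Cd68, Stab1 and 30.5% of genes tested, and DKO/hA-I replicate 1 was well above the other two. The log2 fold change was 1.76 ± 0.53 (edgeR adjusted p = 0.0919), and without DKO/hA-I replicate 1 it was 2.74 (edgeR adjusted p = 0.0303). Without DKO/hA-I replicate 2 it was 1.47 (0.252), and without replicate 3 of that group 1.40 (0.224). Leaving out any DKO node gave no call of Cd5l either. The authors' deposited table called Cd68 (q = 4.36e-07) and Cd5l (q = 8.65e-05) among the 8 members in node, and gave Msr1 a q of 0.0643. The log2 ratios of Cd68 and Cd5l there had sizes of 2.02 and 1.77. Their direction was set by correlation with the edgeR fold changes, so it is no separate evidence of direction.

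The stabilins and Scarf1 had smaller differences in node. Stab1 stood at 121, 105 and 142 CPM in DKO nodes, against 99.6, 94.8 and 64.4 CPM in DKO/hA-I nodes. All DKO nodes were above all DKO/hA-I nodes, at a log2 fold change of 0.52 ± 0.19 (edgeR adjusted p = 0.149). Stab2 stood at 108, 50.1 and 103 CPM in DKO nodes, against 104, 138 and 75.4 CPM in DKO/hA-I nodes, and the groups overlapped. Its log2 fold change was -0.27 ± 0.32 (edgeR adjusted p = 0.65). Scarf1 stood at 20.0, 11.8 and 21.8 CPM in DKO nodes, against 17.0, 21.3 and 16.3 CPM in DKO/hA-I nodes. Its log2 fold change was -0.01 ± 0.24 (edgeR adjusted p = 0.991), a wide enough error to hold a modest change in either direction. The median over the 7 members tested was 0.86, against 0.01 over all genes tested and 1.51 over 14 pan-macrophage markers. The members were chosen with earlier results of these data known, so their median is no test of them as a group.

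**Figure D2:**
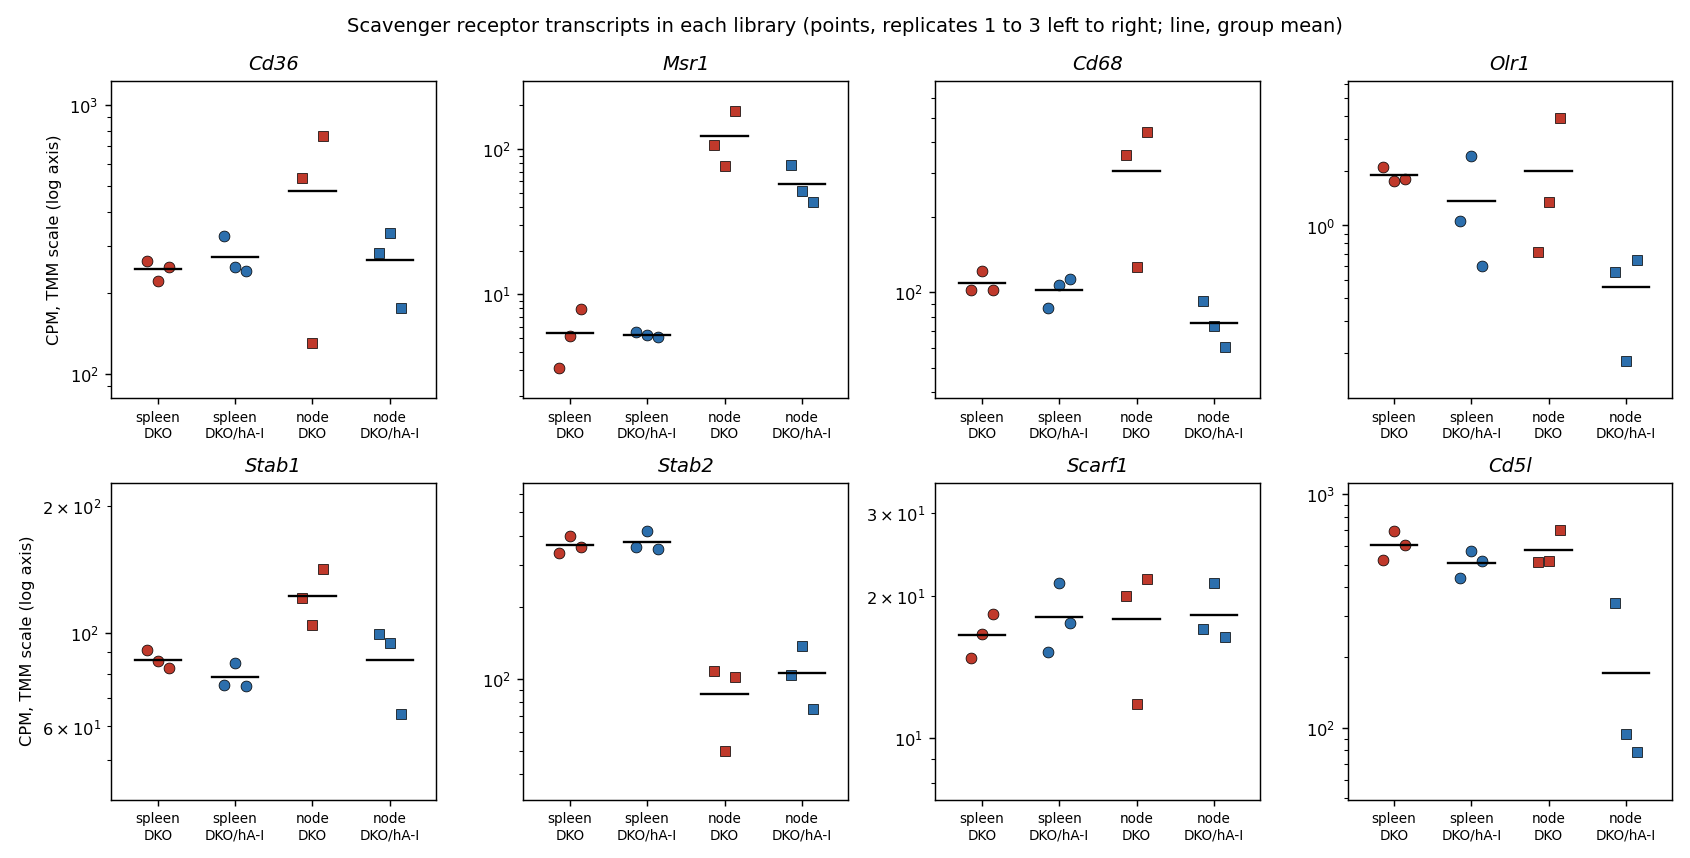
CPM of each member in the 12 libraries on a log axis, with spleen as circles, lymph node as squares, DKO in red, DKO/hA-I in blue and a line at the mean of 3 libraries. Cd68 stands at 127 to 437 CPM in DKO nodes against 60.5 to 92.8 in DKO/hA-I nodes, Stab2 at 339 to 416 CPM in spleens against 50.1 to 138 in nodes, and Msr1 at 3.09 to 7.9 CPM in spleens against 43.2 to 184 in nodes.

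Cell type markers moved with these values in node. Of 14 measured pan-macrophage markers 7 were called higher in DKO and 0 lower. They included the complement genes C1qa, C1qb and C1qc and the apoptotic cell receptor gene Mertk. Their summed level was 6720 to 10907 CPM in DKO nodes, against 4263 to 5159 CPM in DKO/hA-I nodes, and the lysozyme gene Lyz2 made up 52.5 to 61.8% of it in DKO and 62.1 to 62.5% in DKO/hA-I. Relative to that sum, Cd68 stood at 1.89 to 4.12 per 100 CPM in DKO nodes, against 1.42 to 1.80 in DKO/hA-I nodes. With Lyz1 and Lyz2 left out of the sum the Cd68 ratio was 5.78 to 11.1 in DKO and 5.74 to 6.37 in DKO/hA-I, and the groups overlapped. Msr1 relative to the full sum was 1.15 to 1.69 per 100 CPM in DKO nodes, against 1.01 to 1.51 in DKO/hA-I nodes. With Lyz1 and Lyz2 left out, the Msr1 ratio was 3.33 to 3.89 in DKO nodes, below the 4.10 to 5.36 of DKO/hA-I nodes. The part of macrophage content in the Cd68 and Msr1 values was not otherwise tested.

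Other marker lists differed in the same nodes as well. All 12 adipocyte markers were called lower, and their sum was 159 to 169 CPM in DKO nodes, against 854 to 2887 CPM in DKO/hA-I nodes. None of them was at 0 counts in either node group. Their part in the value of Cd36, which adipocytes also express, was not tested. Of 4 measured marginal zone and sinus macrophage markers 3 were called lower in DKO, and their sum was 277 to 404 CPM in DKO against 1034 to 1610 CPM in DKO/hA-I. Endothelial markers, which bear on the stabilins, had 1 called higher and 4 lower of 13. The higher one was Pdpn (log2 fold change 1.95, edgeR adjusted p = 0.017). The lower ones were Clec4g (-2.44, edgeR adjusted p = 0.0138), Tek, the vascular growth factor receptor gene Kdr and the hyaluronan receptor gene Lyve1. All 13 markers together summed to 1020 to 1138 CPM in DKO nodes, against 1309 to 1453 CPM in DKO/hA-I nodes.

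Some lists had summed levels that did not overlap between the node groups although none of their markers was called. Red pulp macrophage markers, which bear on Cd5l as a tissue macrophage gene, summed to 452 to 747 CPM in DKO nodes, against 362 to 426 CPM in DKO/hA-I nodes, with 0 of 8 called. B cell markers summed to 1657 to 2584 CPM in DKO, against 2740 to 3009 CPM in DKO/hA-I (0 of 6 called). T cell markers summed to 571 to 911 CPM in DKO, against 1054 to 1215 CPM in DKO/hA-I (0 of 8 called). Erythroid markers summed to 23.6 to 65.3 CPM in DKO, against 110.4 to 341 CPM in DKO/hA-I, and muscle markers to 4.89 to 6.3 CPM, against 7.24 to 11.5 CPM. The part of these lists in the members' values was not tested.

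**Figure D3:**
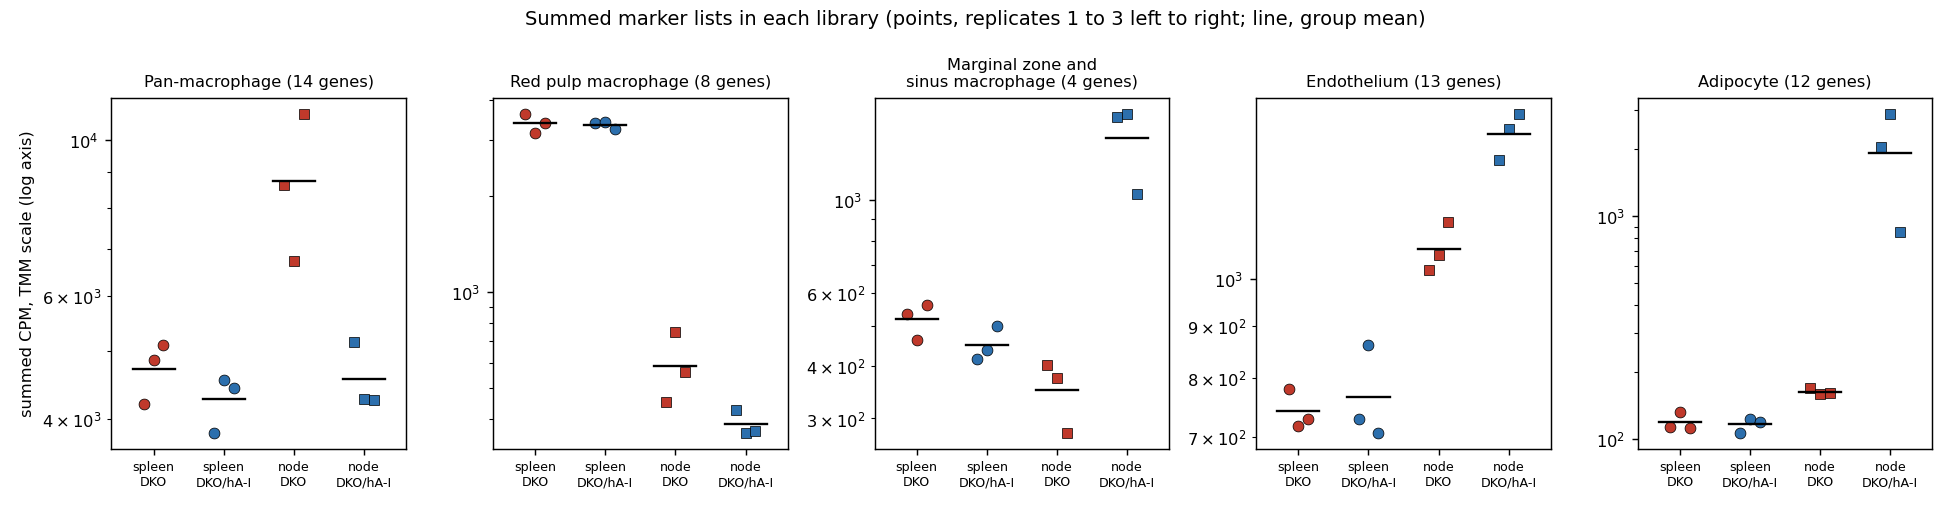
Summed CPM of 5 marker lists in each library on a log axis, with DKO in red, DKO/hA-I in blue, spleen as circles, nodes as squares and a line at the mean of 3 libraries. In nodes the pan-macrophage sum is 6720 to 10907 CPM in DKO against 4263 to 5159 in DKO/hA-I, and the adipocyte sum is 159 to 169 CPM in DKO against 854 to 2887 in DKO/hA-I.

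Other scavenger receptor genes moved in both directions in node. Of 21 such genes 20 were tested. In DKO 7 were called higher, against 3.95% of genes, and 4 lower, against 2.92%. The median log2 fold change was 0.50. Marco, a class A relative of Msr1 found on marginal zone and sinus macrophages, stood at 33.4, 22.4 and 13.1 CPM in DKO nodes, against 406, 264 and 185 CPM in DKO/hA-I nodes. It was therefore lower in each DKO node than in any DKO/hA-I node (-3.62 ± 0.41 on the log2 scale, edgeR adjusted p = 0.00948). The lectin gene Cd209b of the same cells was lower as well, at 41.7 ± 17.4 CPM in DKO against 535 ± 141 CPM in DKO/hA-I (-3.67 ± 0.38 on the log2 scale, edgeR adjusted p = 0.00781). The other class A receptor gene Colec12 was higher, at 170.5 ± 43.0 CPM against 66.0 ± 2.09 CPM (1.38 ± 0.18, edgeR adjusted p = 0.0125). Cd14, the co-receptor for bacterial lipopolysaccharide, which is also a pan-macrophage marker here, was higher too, at 37.4 ± 20.5 CPM in DKO against 7.44 ± 1.34 CPM in DKO/hA-I (2.35 ± 0.38, edgeR adjusted p = 0.0177).

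Genes that handle lipid after uptake were tested in the same nodes. Of 23 genes, the test called 9 higher in DKO nodes, against 3.95% of genes, and 1 lower, against 2.92%. The median log2 fold change was 0.89. Those called higher included the lysosomal genes Ctsd, Ctsb and Lamp2. The 13 not called included Abca1, Abcg1, Soat1, Npc1, Npc2 and Plin2, at log2 fold changes of 0.52 to 0.93. The part of macrophage content in these values was not tested. Lipa, the lysosomal acid lipase that frees cholesterol from its esters, had a log2 fold change of 1.85 ± 0.38 (edgeR adjusted p = 0.0336), and was singled out for that role. Gpnmb, a glycoprotein of lipid-laden macrophages, stood at 2068, 356 and 2167 CPM in DKO nodes, against 67.8, 55.2 and 86.8 CPM in DKO/hA-I nodes. DKO replicate 2 was again the lowest of its group, as for Cd68 and Cd36. Trem2, a lipid-sensing receptor gene, had its lowest DKO value in replicate 2 too, at 21.7 CPM, against 5.05 CPM in the highest DKO/hA-I node. Pltp, which transfers phospholipid between lipoproteins, rose to 616 ± 307 CPM in DKO, against 99.6 ± 29.9 CPM in DKO/hA-I. Fabp4, a fatty acid binding protein gene of adipocytes and macrophages, was the 1 lower gene, at 74.1 ± 18.3 CPM in DKO against 709.8 ± 348 CPM in DKO/hA-I.

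In spleen, 0 of 8 members were called between the genotypes. Cd5l had the smallest unadjusted p among them. It stood at 525, 693 and 608 CPM in DKO spleens, against 437, 571 and 517 CPM in DKO/hA-I spleens. The groups overlapped and the log2 fold change was 0.25 ± 0.14 (edgeR adjusted p = 0.929). With the middle number of the animal code as a block Cd5l passed, at 0.39 (edgeR adjusted p = 0.0451). That block called 515 of 14009 genes, against 1 without it. No other spleen shares the middle number of DKO replicate 1, so that library did not inform the blocked comparison. Cd36 stood at 264, 222 and 249.6 CPM in DKO spleens, against 325, 249 and 242 CPM in DKO/hA-I spleens. Its log2 fold change was -0.16 ± 0.13 (edgeR adjusted p = 0.929).

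The remaining spleen values lay close together. Cd68 averaged 109 ± 11.6 CPM in DKO and 102 ± 14.2 CPM in DKO/hA-I (SD, n = 3 each), Stab1 86.4 ± 4.18 and 78.4 ± 5.58 CPM, and Stab2 366 ± 31.4 and 375 ± 36.0 CPM. For these 3 the log2 fold changes were 0.08 ± 0.13, 0.13 ± 0.11 and -0.04 ± 0.11. Scarf1 averaged 16.6 ± 1.76 CPM in DKO and 18 ± 3.1 CPM in DKO/hA-I. Msr1 and Olr1 were scarce in spleen. Msr1 had 28 to 79 counts per DKO library and 55 to 62 per DKO/hA-I library, and Olr1 18 to 19 and 7 to 25. No member's groups were separate in spleen, against 10.6% of genes tested. The test called 0.00714% of 14009 spleen genes, which is 1 gene, so a count of 0 members is at that background. At an unadjusted p under 0.05 there were 617 genes and no member, and DESeq2 and limma voom called 0 members. Of the 20 other scavenger receptor genes and the 22 lipid handling genes tested in spleen 0 were called. Marco stood at 245 ± 21.3 CPM in DKO and 197 ± 23.4 CPM in DKO/hA-I, and the low density lipoprotein receptor relative Lrp1 at 651 ± 66.4 and 585 ± 78.9 CPM. Fabp4 stood at 5.43 ± 1.46 and 9.33 ± 2.64 CPM and Plin2, a lipid droplet coat gene, at 80.0 ± 2.21 and 65.4 ± 6.27 CPM.

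**Figure D4:**
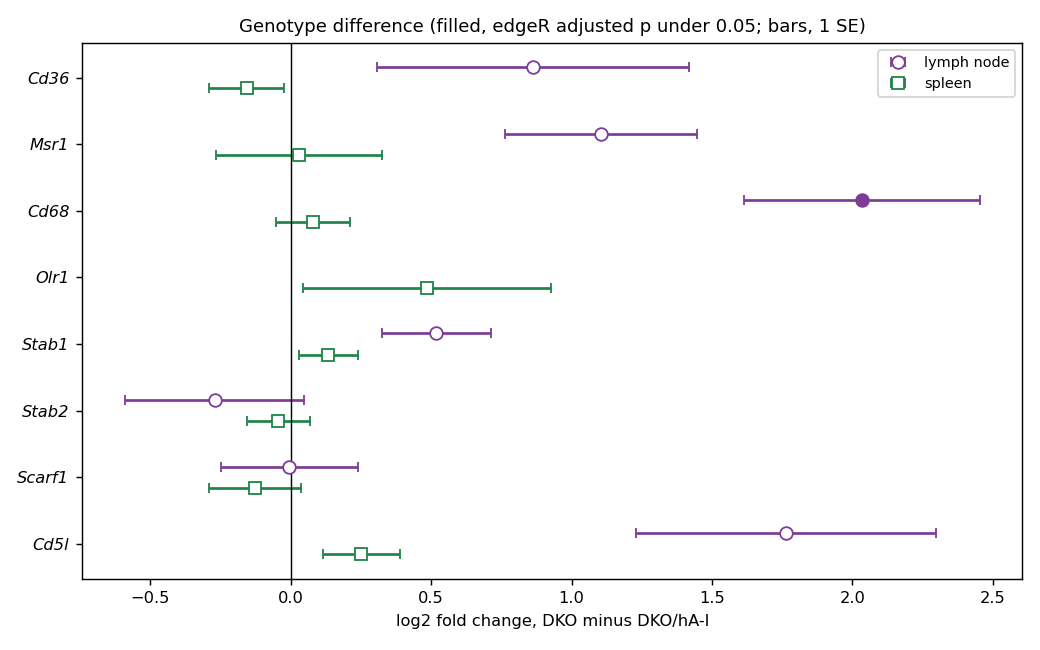
Log2 fold change of each member, DKO minus DKO/hA-I, with bars of 1 standard error, for lymph node (circles) and spleen (squares), filled where the edgeR adjusted p is under 0.05. Cd68 in lymph node, at 2.03, is the only filled point, the spleen points lie between -0.16 and 0.49, and Olr1 was not tested in lymph node.

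The genotype difference itself was compared between tissues in 1 fit of all 12 libraries. Cd68 was again the member that passed. Its difference in node exceeded that in spleen by 1.93 ± 0.47 on the log2 scale (edgeR adjusted p = 0.0424), and 3.33% of 14608 genes passed this test. Of the 8 members 1 was called higher, against 2.04% of genes, and 0 lower, against 1.29%. Leaving out any 1 library other than lymph node DKO replicate 2 ended the call, with adjusted p between 0.0529 and 0.12 and a value of 1.6 to 2.08. Without that library the value was 2.30 (adjusted p = 7.03e-05). For Cd5l the difference of differences was 1.49 ± 0.59 (edgeR adjusted p = 0.207). Without lymph node DKO/hA-I replicate 1 it was 2.46 (edgeR adjusted p = 0.00343), and without replicate 3 of that group 1.15. For Cd36 the difference of differences was 1.00 ± 0.62 (edgeR adjusted p = 0.462). Without lymph node DKO replicate 2 it was 1.44 (edgeR adjusted p = 0.0151), and without replicate 3 of that group 0.50. For each of these genes the other 11 omissions gave no call. The remaining 5 members did not pass, with Olr1 at 1.66 ± 0.93, Msr1 at 1.05 ± 0.51, Stab1 at 0.37 ± 0.23, Scarf1 at 0.11 ± 0.30 and Stab2 at -0.25 ± 0.36.

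Between tissues, Msr1 and Stab2 differed in both genotypes and in opposite directions. Msr1 stood at 3.09, 5.18 and 7.9 CPM in DKO spleens, against 107, 77.0 and 184 CPM in DKO nodes. In DKO/hA-I mice it stood at 5.47, 5.28 and 5.08 CPM in spleens, against 78.1, 51.6 and 43.2 CPM in nodes. Every spleen was below every node, by 22.6-fold in DKO (log2 fold change -4.50 ± 0.38, edgeR adjusted p = 3.32e-06) and 10.9-fold in DKO/hA-I mice (-3.45 ± 0.37, edgeR adjusted p = 2.1e-05). Relative to 100 CPM of summed pan-macrophage markers, Msr1 stood at 0.0736 to 0.155 in DKO spleens against 1.15 to 1.69 in DKO nodes, so the gap was present on that scale as well. In DKO/hA-I mice the same ratio was 0.115 to 0.143 in spleens against 1.01 to 1.51 in nodes.

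Stab2 ran the other way. It stood at 339, 400.3 and 358 CPM in DKO spleens, against 108, 50.1 and 103 CPM in DKO nodes. In DKO/hA-I mice it stood at 358, 416 and 350.5 CPM in spleens, against 104, 138 and 75.4 CPM in nodes. Spleens were 4.19-fold higher in DKO (log2 fold change 2.07 ± 0.27, edgeR adjusted p = 9.51e-05) and 3.53-fold higher in DKO/hA-I mice (1.82 ± 0.26, edgeR adjusted p = 0.000226). The Stab2 to Stab1 ratio per exon length was 4.38 to 5.5 in DKO spleens against 0.563 to 1.05 in DKO nodes, and 5.49 to 5.77 in DKO/hA-I spleens against 1.23 to 1.71 in DKO/hA-I nodes. Spleen libraries thus held more Stab2 than Stab1 per length in both genotypes, while DKO nodes held about as much or less. Endothelial markers summed to 718 to 780 CPM in DKO spleens against 1020 to 1138 in DKO nodes, and to 706 to 862 CPM in DKO/hA-I spleens against 1309 to 1453 in DKO/hA-I nodes. Relative to 100 CPM of that sum, Stab2 stood at 43.4 to 55.8 in DKO spleens against 4.75 to 10.6 in DKO nodes, and at 48.3 to 49.6 in DKO/hA-I spleens against 5.19 to 9.86 in DKO/hA-I nodes. Of the 13 markers in that sum, 3 were called higher in spleen and 7 lower in DKO mice. In DKO/hA-I mice 2 were called higher and 9 lower. The ratio therefore does not give Stab2 per endothelial cell of any single type.

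For the other members the tissue difference was called in 1 genotype or in none. Cd68 was lower in spleen than in node in DKO mice (109 ± 11.6 CPM against 307 ± 161 CPM). The difference was -1.5 ± 0.33 on the log2 scale (edgeR adjusted p = 0.00539). In DKO/hA-I mice it was 102 ± 14.2 CPM in spleen against 75.6 ± 16.2 CPM in node (0.44 ± 0.33, edgeR adjusted p = 0.386). That these values differ between genotypes is the same test as the difference of differences above. Cd5l had the reverse pattern, with 609 ± 83.8 CPM in spleen against 576 ± 107 CPM in node of DKO mice (0.08 ± 0.41, edgeR adjusted p = 0.918). It was higher in spleen than in node of DKO/hA-I mice, at 508 ± 67.6 CPM against 172 ± 148 CPM (1.56 ± 0.42, edgeR adjusted p = 0.0154). The Cd5l call was lost without spleen DKO/hA-I replicate 2 (adjusted p = 0.0577) and without lymph node DKO/hA-I replicates 2 and 3 (0.0712 and 0.0506), and without lymph node DKO/hA-I replicate 1 its log2 fold change was 2.56.

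Stab1 was 1.42-fold lower in spleen than in node of DKO mice, at 86.4 ± 4.18 CPM against 122 ± 18.7 CPM (log2 fold change -0.51 ± 0.16, edgeR adjusted p = 0.0377). That call ended when any spleen DKO replicate, spleen DKO/hA-I replicate 1, or lymph node DKO replicate 1 or 3 was left out, with adjusted p up to 0.145. In DKO/hA-I mice Stab1 was at 78.4 ± 5.58 CPM in spleen and 86.3 ± 19.1 CPM in node (-0.14 ± 0.16, edgeR adjusted p = 0.593). Cd36 was at 245 ± 21.3 CPM in spleen and 477 ± 321 CPM in node of DKO mice (-0.96 ± 0.44, edgeR adjusted p = 0.14). Without lymph node DKO replicate 2 its log2 fold change was -1.41 (edgeR adjusted p = 0.000689), and without replicate 3 of that group -0.46. The other 11 omissions gave no call of Cd36. In DKO/hA-I mice Cd36 had a log2 fold change of 0.04 ± 0.44. Scarf1 varied least, between group means of 16.6 and 18.2 CPM, and Olr1 had log2 fold changes of -0.12 ± 0.58 in DKO and 1.54 ± 0.72 in DKO/hA-I mice, neither of which passed.

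The counts stand beside those of the whole table. Of the 8 members 4 were called between tissues in DKO mice (1 higher and 3 lower in spleen), where 22.8% of 14608 genes were, and 3 in DKO/hA-I mice (2 higher and 1 lower), where 25.7% were. Higher in spleen were 11.5% of genes in DKO and 14% in DKO/hA-I mice, and lower 11.3% and 11.8%. The members called were also those whose spleens and nodes did not overlap, Msr1, Cd68, Stab1 and Stab2 in DKO, where 32.7% of genes had such groups, and Msr1, Stab2 and Cd5l in DKO/hA-I mice, where 45.6% had. With 8 genes the counts say nothing particular to these receptors. Both tissue comparisons come from separate animals, since no animal code occurs in both tissues. The second number of the animal codes is never shared between spleen and node either. Tissue and whatever that number stands for therefore cannot be told apart. Sequencing runs are not listed by tissue, so tissue and any run cannot be told apart.

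**Figure D5:**
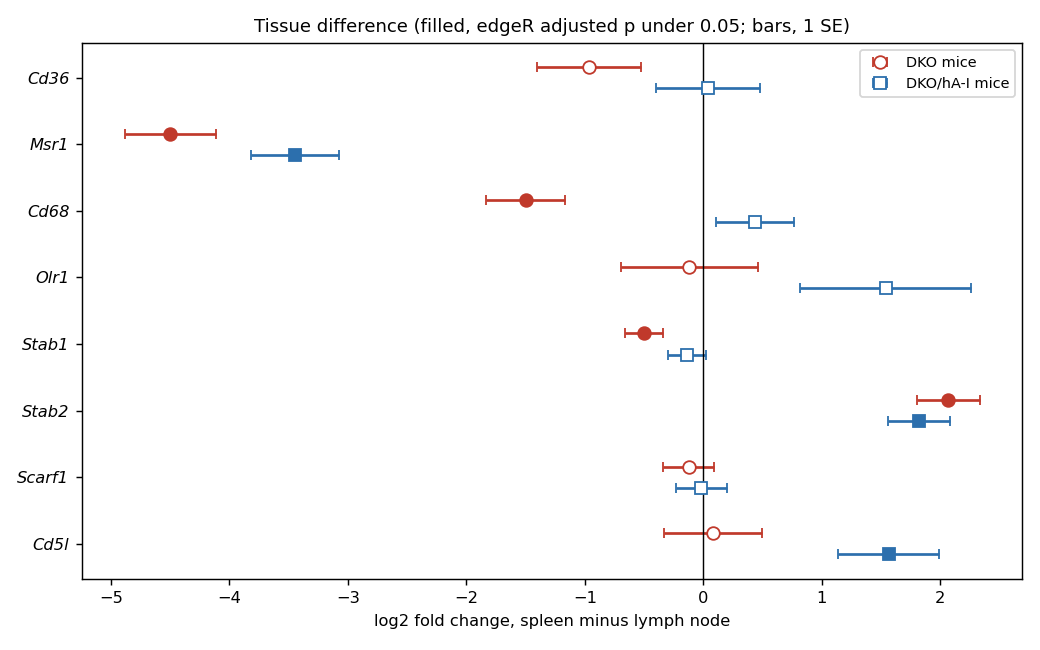
Log2 fold change of each member, spleen minus lymph node, with bars of 1 standard error, in DKO mice (circles) and DKO/hA-I mice (squares), filled where the edgeR adjusted p is under 0.05. Msr1 lies at -4.50 and -3.45 and Stab2 at 2.07 and 1.82 in DKO and DKO/hA-I mice, and Scarf1 lies near 0 in both.

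Genes with the most similar profiles were sought by the root mean square difference between centred log2 CPM profiles over the 12 libraries, among 10971 or 10972 genes with a mean of at least 5 CPM. The profile nearest to Cd68 was that of Vat1, a vesicle amine transport gene, at a difference of 0.181, and next that of Ctsd, the lysosomal protease cathepsin D, at 0.196. These compare with a median of 0.858 over all genes for Cd68. Ctsd stood at 3082 ± 1239 CPM in DKO nodes against 962 ± 191 CPM in DKO/hA-I nodes, and at 1115 ± 91.2 against 962 ± 110.4 CPM in spleens. Stab1 was nearest to Plin3 (0.11) and Plod1 (0.112), Stab2 to Tpm2 (0.226) and Exoc3l (0.258), and Scarf1 to Naaa (0.106) and X99384 (0.127). Cd36 was nearest to Epb4.1l1 (0.287) and Met (0.293), and Msr1 to Lum (0.375), a matrix proteoglycan gene, and Rgs5 (0.425), a pericyte gene, against a median of 2.00 for Msr1. For Cd5l the nearest were Akr1b8 (0.425) and Loxl1 (0.443), and for Olr1 Col16a1 (0.442) and Sept5 (0.451), while the profiles of Cd5l and Olr1 themselves had SDs of 1.01 and 0.729 on that scale.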

How the data were processed

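Poly(A) RNA of 12 libraries was sequenced, per the labels, and the submitters' processing notes name Trimmomatic, Bowtie, TopHat, Cuffdiff and the build GRCm38 (mm10). No source used here gives the counting program or whether it used strand. The deposited tables, one per tissue, hold raw read counts per gene, per the file headers. They also hold the authors' log2 ratio, p-value, q-value and call. A further 4 columns were not used, because their headers do not say which genotype they describe. Which genotype is the first group was read from the correlation with the edgeR fold changes (Pearson r across genes -0.993 in node and 0.945 in spleen). That made DKO the first group in node and DKO/hA-I the first in spleen. The headers do not say whether the authors kept 1 order in both tissues. With 1 order, the genotype labels of 1 tissue would be exchanged.

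Testing used edgeR 4.0.16 under R 4.3.3 (filterByExpr with minimum count 10 and total 15, TMM scaling, robust quasi-likelihood test), within each tissue for genotype and over 4 groups of all 12 libraries for the tissue contrasts and the difference of differences. P-values were Benjamini-Hochberg adjusted over all genes tested and called under 0.05. CPM values use TMM factors of all 12 libraries, errors of CPM are SDs (n = 3) and those of log2 fold changes standard errors. Animal codes differ between all libraries, so the replicates are taken as separate mice. The steps were tested on simulated counts. Alternatives were DESeq2 1.42.0, limma 3.58.1 voom, other scaling and filters, blocks, and each library left out. The members and lists were chosen with earlier results of these data known. Named genes are all members, up to 4 called genes of each of 2 lists by adjusted p (otherwise 2 as values), the 2 most similar profiles per member, and genes said to be singled out. Positions come from GENCODE vM21, which matched all 8 members, and promoter windows from RefSeq.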

Additional observations from a re-analysis of the deposited data

Results flagged for a closer look

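Cd68 was picked out because its genotype difference differed between the tissues by a test of that difference. In lymph node it exceeded the spleen difference by 1.93 on the log2 scale (edgeR adjusted p = 0.0424), with all 3 DKO nodes above all 3 DKO/hA-I nodes and overlapping groups in spleen. Over the other settings the adjusted p of this difference ran from 0.00171 to 0.099. The rise of pan-macrophage markers in the same nodes is given above, and its part in this result was not tested. The result also rests on the genotype labels of both tissues, for which the targeted genes gave no check. Groups of 3 libraries were too small to test single libraries as outliers.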

How the results depend on the processing

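In lymph node the count of members called was 1, and it was 0 without a filter on low counts (Cd68 adjusted p = 0.0553 by edgeR), 0 with limma voom (0.0543) and 0 with the replicate block (Cd68 1.88, edgeR adjusted p = 0.0663). It was 2 with DESeq2 (Msr1, 0.0177, and Cd68) and 4 in the edgeR fit over all 12 libraries (Msr1 0.0361, Cd68 0.00188, Stab1 0.0497, Cd5l 0.0161). Over all genes the node count was 962, against 1982 with DESeq2, 438 with the replicate block and 2253 in the 12-library fit. Higher genes were 1191 of the 1982, 221 of the 438 and 1322 of the 2253, against 553 of the 962. In spleen the block on the animal code gave 515 genes, 355 of them higher in DKO, and 1 member (Cd5l 0.39). Spleen DKO replicate 1, alone with its middle number, did not inform that blocked comparison. Between tissues, a fit of the 6 DKO libraries gave 2204 genes against 3325, and edgeR adjusted p-values of 0.0568 for Stab1 there, 0.0595 for Stab1 with the replicate block, and 0.145 for Cd5l in the fit of the 6 DKO/hA-I libraries. For the difference of genotype differences the count over all genes was 487, against 962 with DESeq2, 242 with voom and 299 with the replicate block. The members called were then 0 with voom (Cd68 adjusted p = 0.099), 0 with the replicate block (1.87, 0.0856 by edgeR) and 0 without the filter (0.0799 by edgeR).

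Signs turned, for values near 0, for Scarf1 in node (0.00295 with voom), Msr1 in spleen (-0.059 with voom, -0.035 with the replicate block), Stab2 in spleen (0.024 with the animal code block), Olr1 between tissues in DKO (0.22 with voom) and Cd36 between tissues in DKO/hA-I mice (-0.0048 with the replicate block). Among comparisons of a member's value with an alternative, 582 kept the sign and side of the threshold, 34 lost a call, 10 gained one and 24 changed sign. The causes were not tested.

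With each library left out in turn, genes called ran from 115 (without node DKO/hA-I replicate 2) to 2245 (without node DKO replicate 2) in node, with 0 to 2 members, and from 1 to 167 (without spleen DKO replicate 1) in spleen, with 0 members. They ran from 2391 to 4427 between tissues in DKO, with 3 to 5 members, from 2898 to 4624 in DKO/hA-I mice, with 2 to 3 members, and from 179 (without spleen DKO replicate 2) to 1160 (without node DKO replicate 2) for the difference of differences, with 0 to 2 members. Log2 fold changes that crossed 0 were Scarf1 in node (-0.19 to 0.20), and in spleen Msr1 (-0.35 to 0.29), Cd68 (-0.023 to 0.15), Stab2 (-0.10 to 0.041) and Scarf1 (-0.23 to 0.012). Between tissues these were Olr1 (-0.56 to 0.93), Scarf1 (-0.34 to 0.030) and Cd5l (-0.024 to 0.23) in DKO, and Cd36 (-0.19 to 0.24) and Scarf1 (-0.16 to 0.10) in DKO/hA-I mice. For the difference of differences they were Stab2 (-0.44 to 0.020) and Scarf1 (-0.045 to 0.31). The tissue calls of Msr1 and Stab2 in both genotypes, and of Cd68 in DKO, held without any 1 of the 12 libraries.

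The replicate numbers gave no clear sign of pairing, which such correlations cannot exclude. Deviations of same-numbered libraries correlated at -0.01, 0.13 and -0.10 across genes between the spleen groups and at -0.14, 0.04 and -0.03 between the node groups. Among spleens that share the middle number of the animal code, DKO replicate 3 correlated with DKO/hA-I replicate 1 at 0.23. DKO replicate 2 did so with DKO/hA-I replicates 2 and 3 at 0.13 and 0.01. Depth limits Olr1 most, with 2 to 8 counts in 5 of the 6 nodes. With 3 libraries per group, 1 of them shallow, the calls in node rest on few animals.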
